A study of Mus musculus with 6 samples.

Results

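Chromatin accessibility around Myod1 and Myog was described from the joined set of accessible intervals of an ATAC-seq experiment, an assay in which a transposase cuts and tags open DNA. An interval was taken as a member when at least 1 bp of it overlapped the gene or the 50 kb on either side of it. By this rule 47 of the 323483 intervals were members, 16 of them in the Myod1 window and 31 in the Myog window. The libraries came from mouse embryonic fibroblasts, heterozygous for a TetO-Myf6 allele and for the M2-rtTA transactivator that answers to doxycycline, all kept for 24 h in a medium with 10 ng/mL bFGF. The Myf6+F/R/C group received 2 µg/mL doxycycline with 3 compounds, namely 5 µM forskolin, 5 µM RepSox and 3 µM CHIR99021, the Myf6 group received the same doxycycline alone, and the medium group received neither. Each of these 3 groups had 2 libraries. Forskolin raises cAMP, RepSox blocks signalling through the TGF-beta receptor ALK5 and CHIR99021 blocks the kinase GSK3 and so stabilises beta-catenin. No transgene of Myod1 or Myog is named in the labels.

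The design asks how Myf6 and the 3 compounds change accessibility, but the table used here gives only the position of each interval. It holds no value for a library or a group, its peak score was 0 in all 323483 rows, and the read depth behind an interval is unknown. Differences between the Myf6+F/R/C, Myf6 and medium groups were therefore not analysed here. An interval records that a peak entered the joined set, without saying from which group, and none of the values below has a replicate error or a test. An interval absent from a site shows that no peak was called there at an unknown depth, not that the DNA was closed.

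Myod1 and Myog encode basic helix-loop-helix transcription factors that pair with E-proteins and bind E-boxes, short DNA sites of the form CANNTG. Myod1 acts at the commitment of cells to skeletal muscle and can convert fibroblasts into muscle cells, and Myog acts later, in terminal differentiation. In the mouse, Myod1 is controlled by a proximal promoter, by a distal regulatory region a few kilobases upstream and by a core enhancer farther upstream. The core enhancer is known for activating Myod1 in the embryo and the distal regulatory region for its expression in muscle cells. Myog is known for a short promoter next to its start site, with E-boxes, a MEF2 site and a MEF3 site.

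The first of the following sequences is shown because an interval covered all of it, and the second because none reached it. Both hold the 250 bases before a transcript start, from RefSeq with the build GRCm38.p6, on the forward strand. The first precedes Myog (chr1:134289754-134290003). The second precedes Gm45923 (chr7:46371153-46371402), listed with the synonyms DRReRNA and Munc, a long noncoding RNA made from the distal regulatory region of Myod1. Capitals mark E-boxes, the MEF3 core and MEF2 cores.
Myog promoter: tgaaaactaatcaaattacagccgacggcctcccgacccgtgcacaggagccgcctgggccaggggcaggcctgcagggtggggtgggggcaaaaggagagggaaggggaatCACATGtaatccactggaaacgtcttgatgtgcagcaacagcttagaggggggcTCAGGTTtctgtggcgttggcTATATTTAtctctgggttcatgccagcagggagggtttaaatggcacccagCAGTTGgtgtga
Gm45923 promoter: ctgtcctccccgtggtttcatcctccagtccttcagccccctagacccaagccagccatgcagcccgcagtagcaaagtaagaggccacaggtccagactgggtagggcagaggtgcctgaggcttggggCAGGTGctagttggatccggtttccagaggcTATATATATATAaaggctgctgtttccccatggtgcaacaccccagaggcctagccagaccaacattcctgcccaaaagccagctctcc

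The Myog promoter held 2 E-boxes, CACATG from 138 to 133 bases before the start and CAGTTG from 12 to 7 bases before it. Of the 250-base promoters of 17491 protein-coding genes, 62.7% held at least 1 E-box and 28.4% held 2 or more. The E-box forms CAGCTG (11.6% of promoters) and CAGGTG (16.5%) had no match there. The MEF3 core TCAGGTT matched from 84 to 78 bases before the Myog start, and 3.30% of promoters held it. The MEF2 site with its flanking bases had no match in the Myog promoter (2.79% of promoters). Its core, TA followed by 4 bases of A or T and then TA, matched from 63 to 56 bases before the start. That looser form was added after the letters were seen, and 7.81% of promoters held it. The M-CAT core CATTCC, bound by Tead factors, the AP-1 site TGANTCA and the TATA core TATAAA had no match there, against 11.6%, 6.22% and 12.4% of promoters. The Gm45923 promoter held 1 E-box, CAGGTG from 120 to 115 bases before its start. It also held 1 CATTCC, 1 TATAAA and 3 overlapping MEF2 cores in 1 run of alternating T and A, and the TATAAA shares bases with that run. The MEF2 site with its flanking bases had no match in the Gm45923 promoter either. Of promoters, 0.635% held 3 or more of the looser core. GC made up 56.4% of the Myog promoter and 57.6% of the Gm45923 promoter, against a median of 55.2% over promoters. Both strands were searched, and a match is a string of letters, not a bound site.

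Myog (gene ID 17928) lies on chromosome 1 from 134290004 to 134292548, on the forward strand. An interval of 583 bp, from 134289575 to 134290157, lay over its start, with 429 bases before the start and 154 from the start on, and so held the whole promoter shown above. The start lay under an interval in 58.6% of 17491 protein-coding genes with a known strand. Where a start was covered, the interval had a median width of 1294 bp (quartiles 989.75 and 1639 bp), and 7.42% of these intervals were narrower than that of Myog. The same interval held the start of Myoparr, a long noncoding RNA read in the opposite direction from the Myog promoter and known to promote Myog expression in differentiating myoblasts. Accessibility at the 2 starts cannot be told apart in it.

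Within the Myog gene another pair of intervals lay toward its far end, at 134291533 to 134291761 (229 bp) and at 134291945 to 134292369 (425 bp). Together with the part of the start interval that lies in the gene, they covered 31.7% of it. Of 2636 protein-coding genes of 1 to 4 kb, the median had 9.51% of its body covered, and 73.2% had less than Myog. The Myog body was thus more covered than the median short gene, with its intervals at both ends and a stretch of 1375 bp between them without any.

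Upstream of Myog the intervals came in groups. Those nearest the gene were at 134288154 to 134288856 (703 bp, 1148 bases before the start and over the far part of Myoparr), at 134287021 to 134287134 (114 bp) and at 134284744 to 134284839 (96 bp). The last has the least width found among all intervals, 96 bp. A wider interval of 746 bp lay at 134282812 to 134283557, 6447 bases before the start and outside any annotated gene. Between 12738 and 17043 bases before the start, 6 intervals of 128 to 582 bp followed each other, 5 of them over the long noncoding RNA gene Gm32221. The interval at 134276018 to 134276496 (479 bp) held the start of Gm32221, and that at 134273833 to 134274414 (582 bp) was the widest of the 6. Farther out, single intervals of 201 bp and 128 bp lay 23905 and 36538 bases before the start, and 3 intervals of 395, 590 and 827 bp lay between 42931 and 45206 bases before it. In all, 15 intervals lay upstream of Myog and covered 12.3% of the 50 kb there.

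Downstream of Myog, 12 of the 13 intervals overlapped Ppfia4, which encodes a liprin-alpha scaffold protein and whose annotated body lies from 4235 bp beyond Myog onward, on the opposite strand. The interval outside it was the nearest, at 134293719 to 134293839 (121 bp). The widest of the Myog window, 1147 bp at 134298626 to 134299772, lay 6078 bp beyond the gene and held the start of the long noncoding RNA Gm32267, whose 250-base promoter had 68.0% GC. The next in width, 1050 bp at 134332583 to 134333632, held a start of Ppfia4, and 937 bp at 134320583 to 134321519 lay inside Ppfia4 without an annotated start. The other 9 over Ppfia4 measured 132 to 674 bp and lay between 4775 and 46407 bp beyond Myog. Intervals covered 13.1% of the 50 kb downstream. Which of them serve Myog, which serve Ppfia4 and which serve neither cannot be read from their positions.

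**Figure D1:**
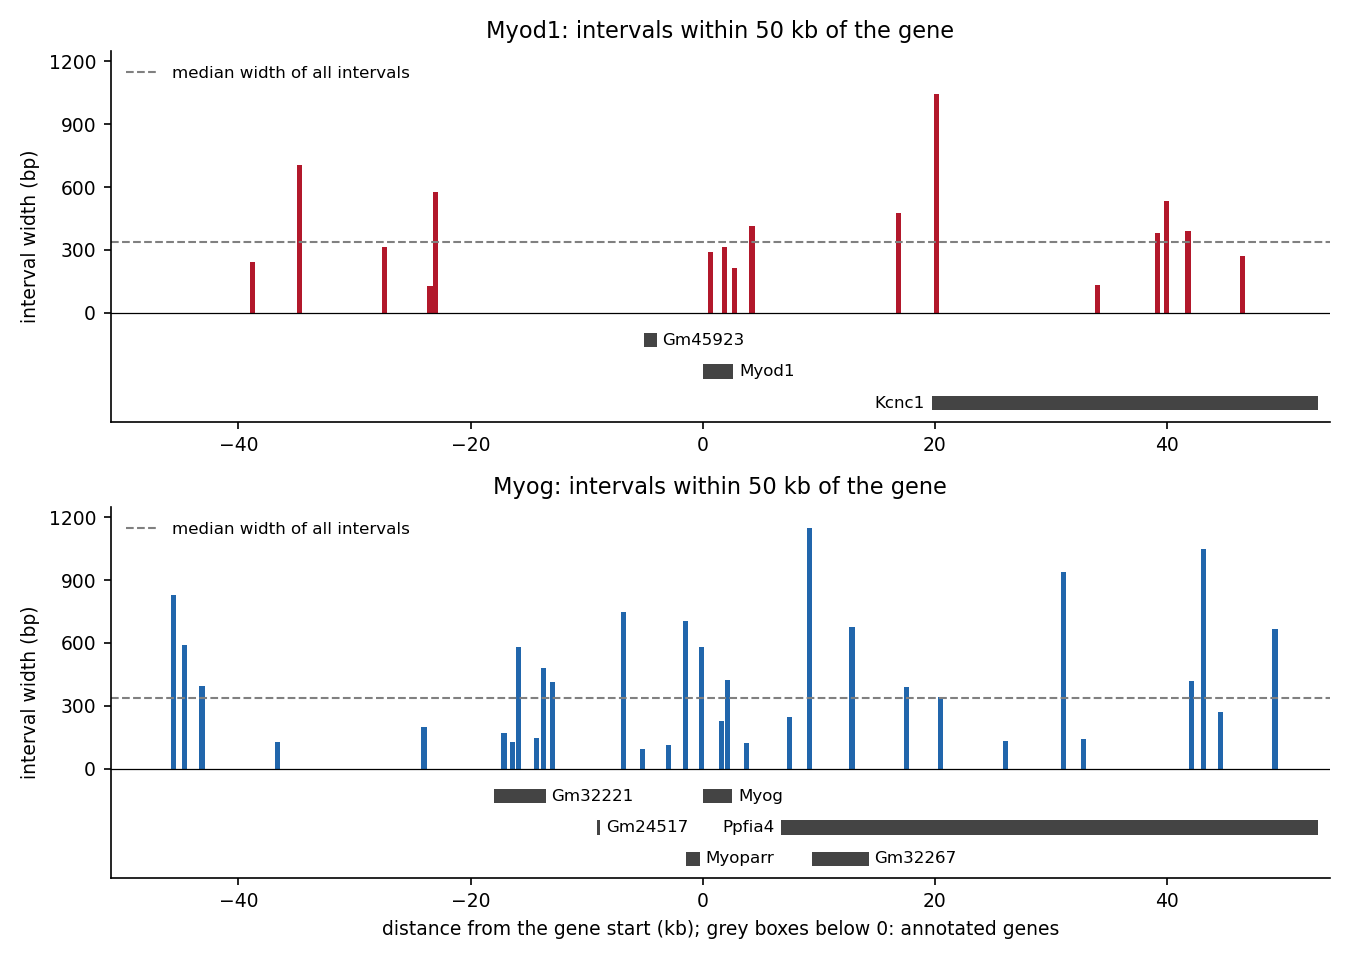
Intervals in the windows of Myod1 (upper panel) and Myog (lower panel) by distance from the gene start in kb (x axis, negative upstream) and interval width in bp (y axis). Each bar is 1 interval, drawn at a fixed breadth. Grey boxes mark annotated genes and the dashed line marks the median width of all intervals, 336 bp. The 16 intervals around Myod1 leave the 22.7 kb before the gene empty, where Myog has 11 intervals within 22.7 kb of its start.

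Myod1 (gene ID 17927) lies on chromosome 7 from 46376474 to 46379092. Its start was taken as the lower of these positions, from general knowledge of the gene. No interval lay over it. The nearest began 535 bases into the gene, at 46377009 to 46377297 (289 bp), and the next at 46378190 to 46378501 (312 bp), both inside Myod1. Just beyond the far end of the gene, by 10 and 1409 bp, followed intervals of 215 bp (46379102 to 46379316) and 415 bp (46380501 to 46380915). In 34.1% of the protein-coding genes the nearest interval was as far from the start as at Myod1 or farther. The 2 intervals inside Myod1 covered 22.9% of it, and 63.3% of the genes of 1 to 4 kb had less of their body covered.

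Of the 3 published control regions of Myod1, only the region of the core enhancer held intervals. With regions widened by 1 kb the proximal promoter joined it, only because its window then reached the interval 535 bases into the gene. These regions were set as windows upstream of the start, 300 bp for the proximal promoter, 4 to 6 kb for the distal regulatory region and 18 to 25 kb for the core enhancer. The proximal promoter had no interval, against 60.4% of protein-coding genes with at least 1 interval in the same 300 bp. The distal regulatory region had none, against 28.0% of genes. No interval overlapped the 1090 bp of Gm45923, whose body lies between 3982 and 5071 bases before the Myod1 start, and the nearest interval to its start was 5606 bp away. The Myog start had a 96-bp interval in the matching window of 4 to 6 kb.

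The core enhancer window held 2 intervals, at 46352921 to 46353048 (128 bp) and at 46353189 to 46353764 (576 bp), 140 bp apart. They ended 23426 and 22710 bases before the Myod1 start and covered 704 bp of the window. The same window held at least 1 interval in 61.2% of genes, and Myod1 was thus among the larger share of genes. The 576-bp interval was wider than 72.8% of all intervals and the 128-bp interval wider than 8.74%. The window is broader than the enhancer itself, and whether an interval lies on its sequence was not tested.

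**Figure D2:**
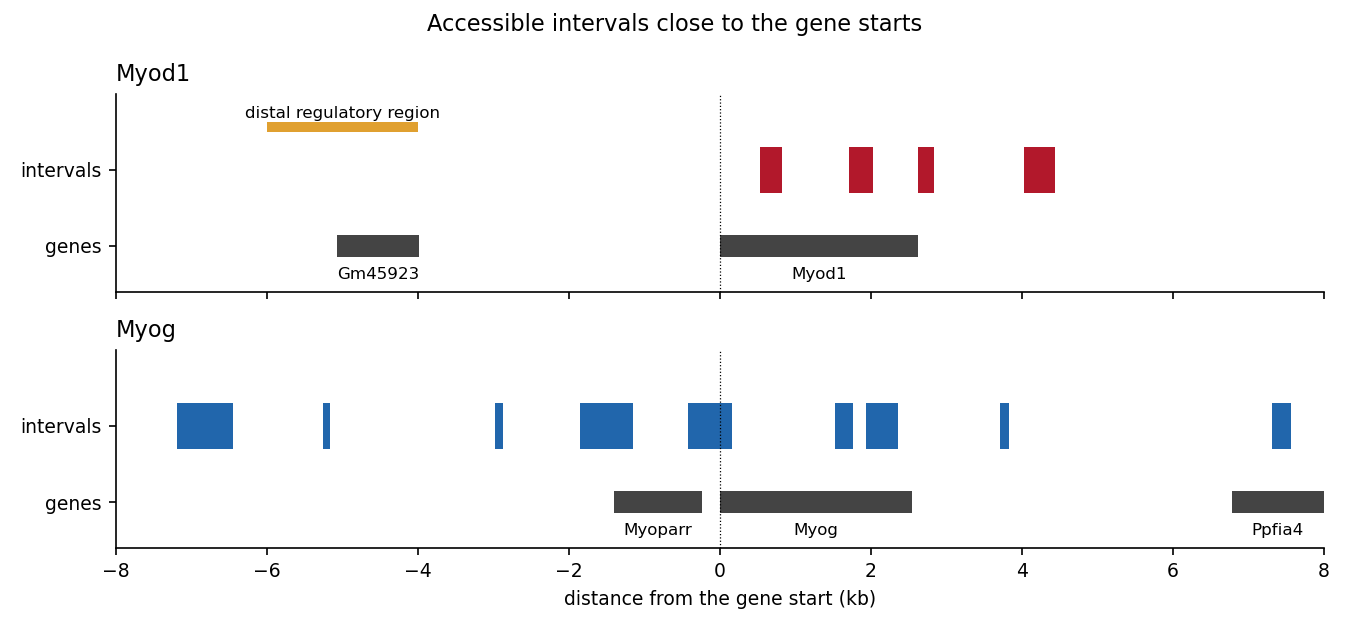
Intervals (coloured boxes, true to scale) and annotated genes (grey boxes) within 8 kb of the starts of Myod1 (upper panel) and Myog (lower panel), by distance from the gene start in kb. An orange bar marks the window of 4 to 6 kb set for the Myod1 distal regulatory region, over which no interval lies. The dotted line is the start, which the 583-bp interval crosses at Myog and none crosses at Myod1.

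Between the 576-bp interval and the first interval inside Myod1 lay 23.2 kb without any interval. Gaps as long made up 5.17% of the 323376 gaps between neighbouring intervals, whose median was 3034 bp (upper quartile 6883 bp). This stretch was pointed out after the positions were seen. Of the protein-coding genes, 82.8% had at least 1 interval in the same 22.7 kb upstream of the start. At Myog that stretch held 11 intervals, which covered 4010 bp.

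Farther upstream of Myod1 lay intervals at 46348899 to 46349211 (313 bp), 46341390 to 46342094 (705 bp) and 46337560 to 46337803 (244 bp), all outside annotated genes. The 705-bp interval, 34380 bases before the start, was the widest upstream of Myod1 and wider than 80.8% of all intervals. Upstream of the gene, 5 intervals covered 3.93% of the 50 kb.

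Downstream of Myod1, 6 of the 9 intervals overlapped the neighbouring gene Kcnc1, which encodes a voltage-gated potassium channel of neurons and whose annotated body begins 17127 bp beyond Myod1. The widest interval of the Myod1 window, 1044 bp at 46396086 to 46397129, held the Kcnc1 start, and the 250 bases before that start had 74.4% GC. It was the only 1 of the 16 wider than 948 bp, the width that 90% of all intervals do not exceed. An interval of 477 bp lay between the 2 genes, at 46393082 to 46393558, and the other 5 over Kcnc1 measured 133 to 533 bp. Intervals covered 7.73% of the 50 kb downstream.

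In steps of 10 kb from the start, Myod1 had 0, 2, 3, 0 and 0 intervals over the 50 kb upstream, from far to near, counted by midpoint. Myog had 3, 1, 1, 6 and 5 in the same steps. The mean over protein-coding genes ran between 1.55 and 1.60 per step. The 10 kb before the start held no interval in 31.6% of genes, as at Myod1. The step from the start to 10 kb held 4 intervals at Myod1 and 5 at Myog, against a mean of 1.96. Beyond it the steps held 1, 1, 3 and 2 intervals at Myod1 and 2, 2, 2 and 4 at Myog. Around Myog the intervals were thus most crowded from 20 kb before the start to 10 kb after it, and around Myod1 the 20 kb before the start were empty.

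**Figure D3:**
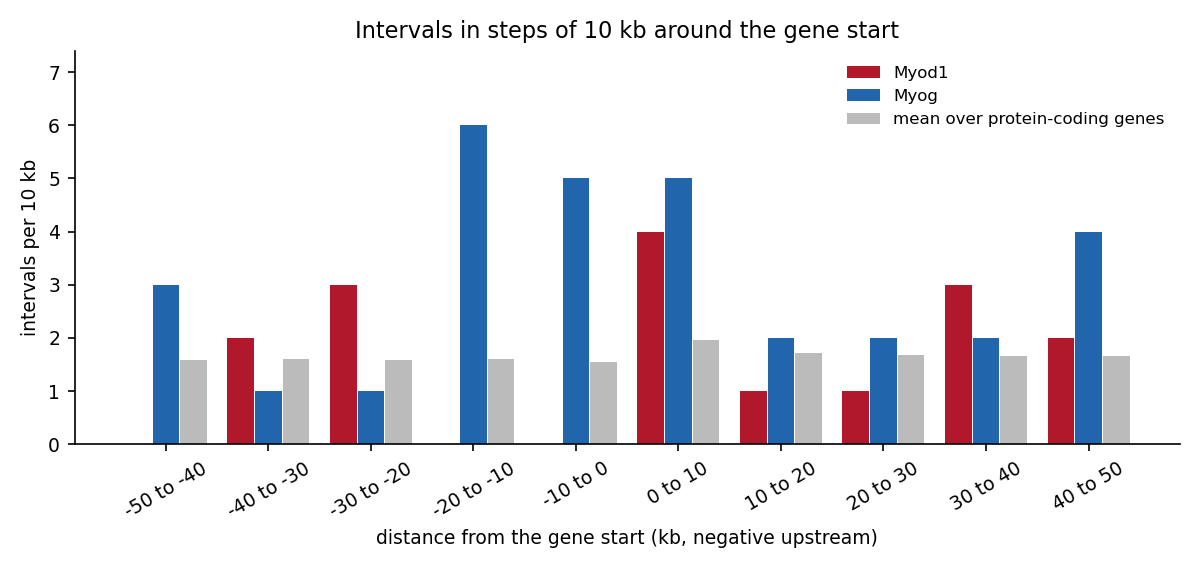
Number of intervals (y axis) in steps of 10 kb from the gene start (x axis, negative upstream), for Myod1, Myog and, in grey, the mean over 17491 protein-coding genes with a known strand. Myog reaches 6 intervals between 20 and 10 kb upstream, where Myod1 has 0 and the mean is 1.60.

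Per 100 kb, the window of Myod1 held 15.6 intervals and that of Myog 30.2, against a median of 17.99 over the same windows of 21883 protein-coding genes (quartiles 9.63 and 24.3). Of the other genes, 41.1% had a lower value than Myod1 and 92.5% a lower value than Myog. By the share of the window covered, 6.27% at Myod1 and 13.2% at Myog, 33.9% of genes were lower than Myod1 and 78.1% lower than Myog (median 8.86%). The 2 windows thus lay on opposite sides of the median by both measures. Chromosome 7 as a whole held 12.1 intervals per 100 kb and chromosome 1 held 12.4, close to each other and below both windows.

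The intervals themselves were of common width. Their median was 347.5 bp around Myod1 and 395.0 bp around Myog, against 336 bp over all intervals (quartiles 185 and 607 bp). In the Myod1 window 2 of 16 (12.5%) were wider than that upper quartile, and in the Myog window 8 of 31 (25.8%). Below the lower quartile were 9 of 31 at Myog, near the share that a quartile cuts off by definition, and 2 of 16 at Myod1. The intervals are too few to read a difference in width between the windows from these counts. A width gives how far joined peaks reach and says nothing of their height.

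**Figure D4:**
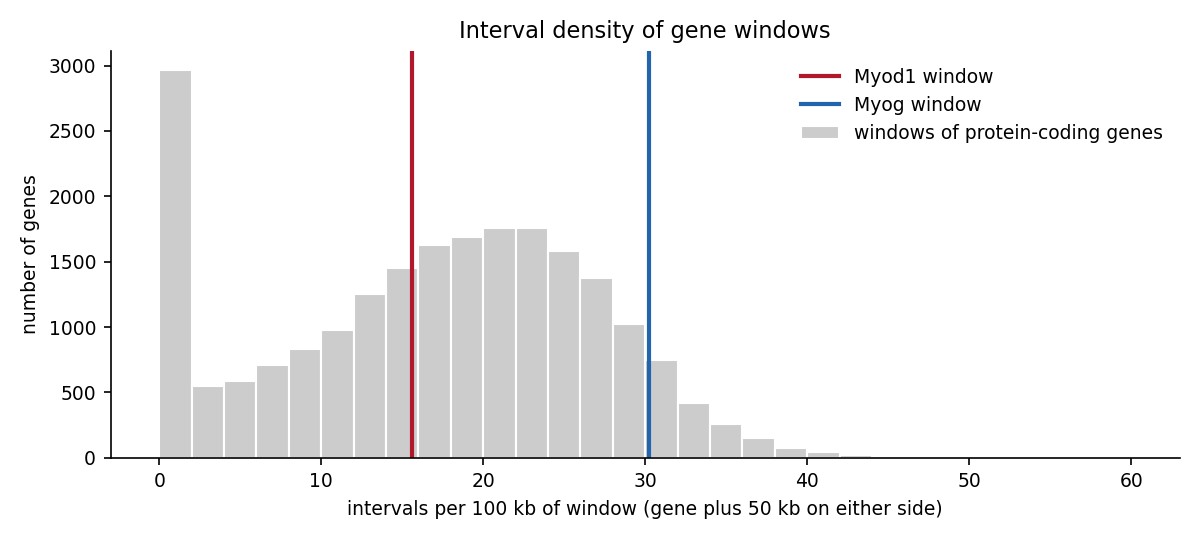
Number of protein-coding genes (y axis) by intervals per 100 kb of their window (x axis, the gene plus 50 kb on either side, in steps of 2). The red line marks Myod1 at 15.6 and the blue line Myog at 30.2.

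Among the 4 myogenic bHLH factors, Myod1 had the lowest density and Myog the highest. Myf5, which acts in early myoblasts, had 21.1 intervals per 100 kb and Myf6, the induced gene, 22.6. The Myf5 and Myf6 windows overlap and share intervals, and reads of the Myf6 transgene cannot be separated from those of the endogenous gene. All 4 had an interval within 1 kb of a gene end, as did 74.7% of all protein-coding genes.

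Genes that act with, against, before or after Myod1 and Myog were set beside the median of 17.99 per 100 kb, which 50.0% of all genes exceed. Among the 12 partners, 10 lay above it, with a list median of 27.5. Tcf3 (30.5) and Tcf4 (30.4), which encode E-proteins, were higher than Myog, and Mef2c (12.2) and the transcriptional cofactor gene Eya1 (14.9) were lower than Myod1. Of the 12 inhibitors, 7 (58.3%) lay above the median of all genes, near the share of all genes. Their list median was nevertheless 28.2, and 6 of the 12 (50%) had a higher density than Myog, against 7.49% of all genes. Id1 (37.6) and Id3 (36.4), which encode proteins that bind E-proteins without binding DNA, and the repressors Twist2 (35.5) and Snai1 (35.4) had the highest values. Snai2 (11.6), Hey1 (12.5) and Id4 (15.3) had lower values than Myod1. Among the 8 upstream factors, 5 exceeded the median of all genes, with a list median of 19.6. Values of the 8 ran from Meox2 at 9.94 to Meox1 at 28.2. The paired-box genes Pax3 and Pax7 had 19.9 and 17.3.

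Of the 25 muscle targets, 22 had a higher density than Myod1 and 8 a higher one than Myog, with a list median of 27.3. Of all protein-coding genes, 58.9% had a higher density than Myod1 and 7.49% a higher one than Myog. The slow troponin gene Tnni1 (40.6), the cardiac and embryonic troponin gene Tnnt2 (37.1), the cadherin gene Cdh15 (35.3) and the cell cycle inhibitor gene Cdkn1a (32.8) had the highest values. Titin (Ttn, 12.2), cardiac actin (Actc1, 13.3) and Myom2 (14.8), which encodes an M-band protein, had the lowest. In all, 24 of the 25 had an interval within 1 kb of a gene end, Myl1 being the exception, against 74.7% of all protein-coding genes. A window can hold intervals of neighbouring genes, so these values describe the surroundings of a gene as much as the gene. Each window was counted on its own, so targets that lie close together would share intervals and are not separate observations.

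The fibroblast label was set beside marker genes by the same measure. All 12 fibroblast markers had an interval within 1 kb of a gene end, against 74.7% of all protein-coding genes. So did all 12 inhibitors, all 8 upstream factors, 11 of the 12 partners and 24 of the 25 muscle targets. An interval at a gene end thus does not set the fibroblast list apart from these lists. Of the 12, 11 lay above the median density of all genes, with a list median of 32.3. Fn1, which encodes fibronectin, had the highest value of these, 41.1, and Twist1 the lowest, 17.6. An interval at a gene end was found for 3 of 4 endothelial, 2 of 4 macrophage and blood, 3 of 4 epithelial and 3 of 4 neural markers. With 4 markers a list, these counts do not set a list apart from the 74.7% of all genes. Among these other markers, Pecam1, Ptprc, Adgre1, Krt5 and Dcx had no interval at a gene end. Their densities ran from 0.889 per 100 kb at Adgre1 to 35.6 at Sox10, which lay above the fibroblast list median. Sox10 had an interval at a gene end, as did Csf1r (30.3), Tubb3 (29.0) and Cdh5 (25.9). List medians were 20.3, 13.9, 17.9 and 20.4 per 100 kb for the endothelial, macrophage and blood, epithelial and neural markers.

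**Figure D5:**
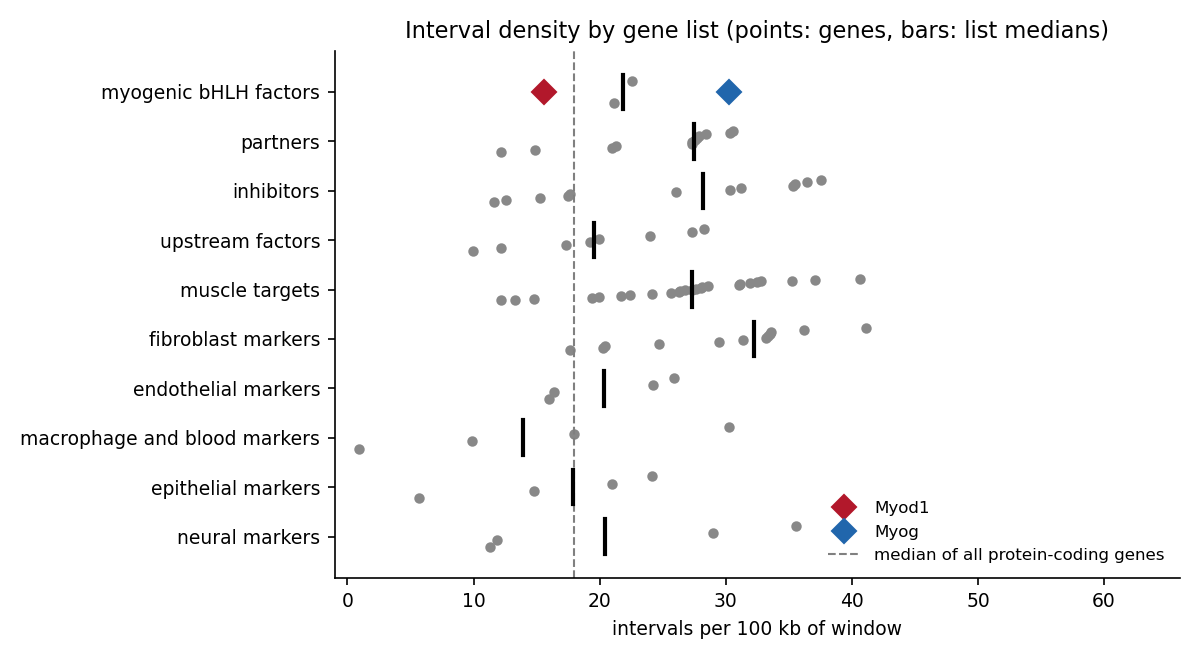
Intervals per 100 kb of window (x axis) for the genes of 10 lists (rows). Grey points are genes, diamonds are Myod1 (15.6) and Myog (30.2), black bars are list medians and the dashed line is the median of all protein-coding genes (17.99). Of the 25 muscle targets 22 lie right of Myod1, as do 58.9% of all protein-coding genes.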

How the data were processed

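ATAC-seq was done on 6 libraries, 2 in each of 3 groups. Whether replicates are separate cultures is not stated in the labels. The submitters' processing notes name BWA, MACS2 and DESeq2 with the build GRCm38.p6, without versions or roles. The authors annotated a consensus peak set with HOMER and GENCODE vM23, per the file headers. Not given in the sources used here are peak calling and joining. The authors' deposited peak score was 0 throughout and was not used, and positions were taken as 1-based. Members and lists were chosen with earlier results of these data known.

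Genes came from the RefSeq table of GRCm38.p6, without mitochondrial genes. The share of genes at a lower value excludes the gene itself, and each of the 17491 genes with a strand had 1 start, its outermost annotated end. Every gene of a list was matched, and 1 partner is not reported here. Intervals of both windows were given by position or, where many lay over a neighbouring gene, by count and range. List genes were named by density and not, as first set, by number, since long genes have wider windows, and not every list's extremes were named. The design took gene starts from tables with a strand, and the Myod1 start was taken from general knowledge. Counting was tested on simulated intervals. Python 3.11.15 with numpy 2.4.6, pandas 2.3.3 and matplotlib 3.10.9 was used, and scipy 1.17.1 for 95% Wilson intervals of shares, which cover counting error only. Flanks, minimum width, joining, backgrounds and motif forms were varied.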

Additional observations from a re-analysis of the deposited data

How the results depend on the processing

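Of 38 alternative values, 9 stayed within 1.5 times a count or within the 95% Wilson interval of a share, and 29 moved. Counts at other flanks move with window length, and the density per 100 kb changed with the flank too. The Wilson limits are narrow, so Myod1 cover of 6.46% against 6.27% counts as moved. The number moved is thus no measure of instability. Per 100 kb, Myod1 had 14.1 intervals with a flank of 20 kb and 13.3 with 100 kb, against 15.6. Myog had 44.7 and 29.1, against 30.2. With a flank of 20 kb Myod1 had 6 intervals and 6.46% cover, and Myog 19 and 18.2%. With 100 kb the values were 27 and 4.89% for Myod1 and 59 and 14.1% for Myog. With intervals of at least 300 bp they were 10 and 5.02% for Myod1 and 18 and 11.1% for Myog. The share of genes at a lower density than Myod1 was 36.9% with 20 kb, 33.2% with 100 kb, 48.4% among genes of 1 to 4 kb, 48.0% among all genes of the table, 33.9% by cover and 47.5% with intervals of at least 300 bp. For Myog it was 99.5%, 93.3%, 91.5%, 93.1%, 78.1% and 89.4% under the same settings. Myod1 stayed below the median and Myog above it in these 6. The nearest interval to the Myod1 start was 679 bp away by midpoint and 1716 bp away with intervals of at least 300 bp, and for Myog it was 138 bp by midpoint. Widening each Myod1 control region by 1 kb gave 2 with an interval, since the proximal one then takes in the interval 535 bases into the gene. Dropping the flanking bases gave 1 MEF2 core in the Myog promoter in place of 0 sites. No paired analysis was possible because the columns carry no library. Differences between groups and leaving out replicates were not run for that reason. Depth is unknown and limits what an absent interval shows.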

Other observations

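The wider surroundings of the members were counted in steps of 100 kb to 500 kb on either side of the start, by midpoint. Around Myod1 the steps held 18, 16, 12, 17 and 10 intervals upstream, from far to near, and 16, 18, 21, 32 and 22 downstream. The step next to Myod1 upstream, which holds part of the inner ear gene Otog, had the least of the 10, with 3.27% of its sequence covered. The step of 32 intervals holds the serum amyloid genes Saa1, Saa2, Saa3 and Saa4 with Saal1 and Hps5. Around Myog the steps held 19, 29, 22, 21 and 33 intervals upstream and 26, 17, 17, 30 and 22 downstream. The step with the highest count of these, 33 intervals over 15.0% of its sequence, lies next to Myog upstream and holds Mybph, a myosin binding protein gene, Adora1 and part of Chil1. The step with 29 intervals had the highest cover, 17.2%, and holds Optc and Prelp, which encode small leucine-rich proteoglycans of the matrix. These genes were named after their values were seen.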
